A study of Caenorhabditis elegans with 4 samples.

Results

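The muscle thick and thin filament genes examined here are 10 genes chosen by name, matched to the deposited count table through their WormBase identifiers: 10 of its 20392 genes. They are the myosin heavy chain genes myo-3, unc-54, myo-1 and myo-2, the paramyosin gene unc-15, the myosin light chain gene mlc-2, the actin gene act-4, the tropomyosin gene lev-11, the troponin I gene unc-27 and the calponin-family gene cpn-3. RNA was sequenced from whole larvae of Caenorhabditis elegans, refed in the first larval stage (L1), in 2 groups of 2 libraries. The first group, called met-1 mutant mes-4(RNAi) here, was strain GW1183 with the genotype met-1-/-, raised on bacteria expressing RNAi against mes-4. The second, wild type, was strain N2 on bacteria with L4440, the empty RNAi vector. Both groups were fed RNAi bacteria as parents for 60 to 65 h at 20 °C, and their offspring hatched without food for 18 h and were refed for 2 h 30 min. The met-1 allele is not named in the labels, and the strain and the RNAi differ together between the groups, so their effects cannot be told apart. MET-1 and MES-4 are methyltransferases of histone H3 lysine 36, and no measurement of that mark is used here.

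In muscle, force comes from thick filaments of myosin pulling on thin filaments of actin. C. elegans builds body wall muscle with the heavy chains of unc-54 and myo-3 around a core of paramyosin: the unc-54 product forms most of the filament, and the myo-3 product lies in its middle and is needed to start assembly. The pharynx, the feeding pump, uses its own heavy chains, encoded by myo-1 and myo-2. On the thin filament, tropomyosin and the troponin complex switch the contact with myosin on and off in response to calcium, and calponin-family proteins bind actin.

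All 10 genes passed the filter on low counts. The libraries held 29081819 and 35106597 counts in met-1 mutant mes-4(RNAi) larvae and 33272359 and 32593317 in wild type. The lowest count of any of the 10 genes was 772, a counting error of 3.60%, while the biological coefficient of variation over all genes was 22.1%, so spread between libraries and not depth set the precision. The labels do not say which cultures the replicates came from beyond calling them independent. The met-1 transcript, whose gene is mutant here, was at 114.9 and 111.4 CPM in met-1 mutant mes-4(RNAi) larvae, against 171.9 and 164.9 CPM in wild type. The transcript of mes-4, the RNAi target, was at 26.2 and 28.3 CPM, against 34.3 and 37.4 CPM. CPM is the count scaled to a common library size, here after TMM, a factor that lines up the bulk of the genes. Both transcripts were lower in met-1 mutant mes-4(RNAi) larvae without overlap, as were 22.2% of all genes tested, and neither was absent. The adjusted p from the count tests edgeR and DESeq2 was 0.111 and 0.00390 for met-1. For mes-4 it was 0.267 and 0.337, a call by neither test.

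Of the 10 filament genes, 2 differed by more than 2-fold: myo-3 and cpn-3 were higher in met-1 mutant mes-4(RNAi) larvae. The other 8 lay between log2 fold changes of -0.10 and 0.38, with standard errors of 0.13 to 0.23. With edgeR's quasi-likelihood test, 0 of the 10 had an adjusted p under 0.05, and 0 of all 15008 genes tested (0%) did. At an unadjusted edgeR p under 0.05, 2 of the 10 were higher, myo-3 and cpn-3, against 7.74% of all genes (1162 higher, with 1023 lower). DESeq2, a second count test, called the same 2 higher, where it called 2.45% of all genes higher and 1.92% lower. It called none (0) of the 10 lower. The 10 genes were chosen with earlier results of these data known, so a share above that of all genes is no evidence of an excess. The median log2 fold change was 0.15 over the 10 genes and 0.01 over all genes tested. By CPM the groups did not overlap for myo-3 and cpn-3, both higher, where 22.7% of all genes were higher without overlap. On this scale they also did not overlap for myo-2, lower, where 22.2% of all genes were lower without overlap. On this scale the shares of genes without overlap are near the background or below it and say nothing particular about the 10 genes. On plain library size, which moved the median log2 fold change of all genes tested to 0.06, mlc-2 and unc-27 were also higher without overlap. The share of all genes without overlap on that scale was not computed, so nothing is read from this.

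**Figure D1:**
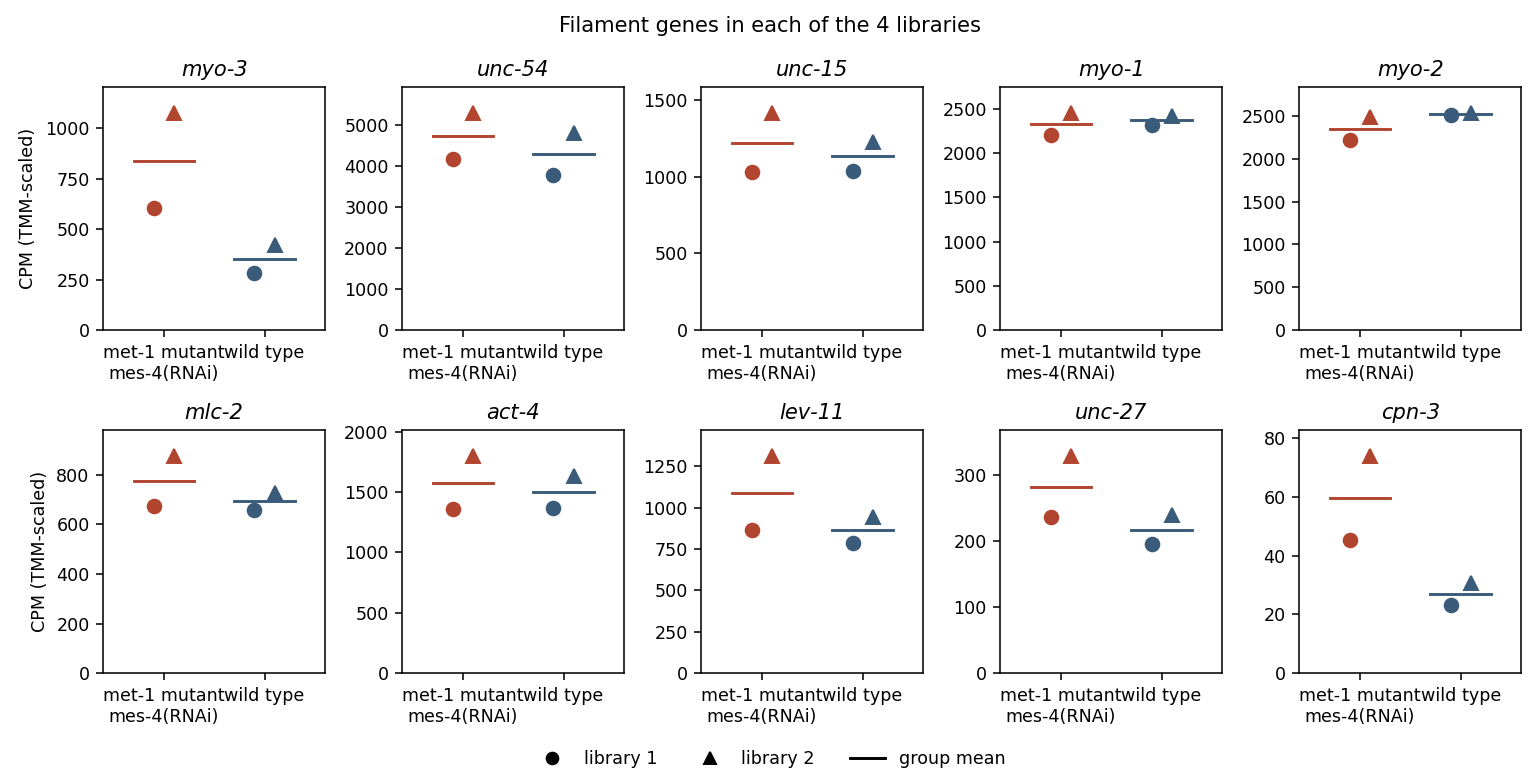
TMM-scaled CPM (vertical axis, starting at 0) of the 10 filament genes in each library, with met-1 mutant mes-4(RNAi) on the left and wild type on the right of each panel. Circles are library 1, triangles library 2 and lines group means. The groups stand clear of each other for myo-3 and cpn-3, and in each group the triangle lies above the circle for all 10 genes on this scale.

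The minor body wall heavy chain gene myo-3 (WBGene00003515, chromosome V) was at 603.3 and 1072.9 CPM in met-1 mutant mes-4(RNAi) libraries 1 and 2, against 281.3 and 418.8 CPM in wild type libraries 1 and 2. Both met-1 mutant mes-4(RNAi) libraries were above both wild type libraries. The means were 838.1 ± 332.0 and 350.1 ± 97.2 CPM (SD, n = 2 each), a log2 fold change of 1.26 (SE 0.34), or 2.39-fold. The edgeR adjusted p was 0.201 and the DESeq2 adjusted p 0.00263. DESeq2 no longer called it without wild type replicate 1 (log2 fold change 0.98) or without met-1 mutant mes-4(RNAi) replicate 2 (0.77). It still did without wild type replicate 2 (1.57) or without met-1 mutant mes-4(RNAi) replicate 1 (1.61). Each of these fits has 1 library in a group, and edgeR called myo-3 in none of them. Its share of the summed CPM of the 10 genes was 4.50% and 6.27% in met-1 mutant mes-4(RNAi) libraries, against 2.17% and 2.80% in wild type.

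The major body wall heavy chain gene unc-54 (WBGene00006789, chromosome I) was at 4167 and 5295 CPM in met-1 mutant mes-4(RNAi) libraries, against 3794 and 4804 CPM in wild type. The groups overlapped, and the 2 libraries of a group lay further apart than the group means. Its log2 fold change was 0.14 (SE 0.20, edgeR adjusted p = 0.822), and the sign turned when the first wild type library or the second met-1 mutant mes-4(RNAi) library was left out. It was the most abundant of the 10 in CPM and held 31.1% and 31.0% of their summed CPM in met-1 mutant mes-4(RNAi) libraries, against 29.2% and 32.1% in wild type. It ranked at position 11 among all genes by CPM in wild type.

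The paramyosin gene unc-15 (WBGene00006754, chromosome I), whose product forms the filament core in body wall and pharynx, was at 1029 and 1413 CPM in met-1 mutant mes-4(RNAi) libraries, against 1037 and 1226 CPM in wild type. These values overlapped, with a log2 fold change of 0.11 (SE 0.20, edgeR adjusted p = 0.862) whose sign also turned when the first wild type library or the second met-1 mutant mes-4(RNAi) library was left out. The gene mlc-2 (WBGene00003370, chromosome X), for a regulatory light chain that binds the neck of the heavy chain, was at 675.9 and 874.8 CPM in met-1 mutant mes-4(RNAi) libraries, against 659.0 and 726.5 CPM in wild type. The groups overlapped on this scale and did not on plain library size, where the 4 values were 704.9 and 868.1 against 661.1 and 698.8 CPM. The log2 fold change was 0.16 (SE 0.17, edgeR adjusted p = 0.730), and it was -0.04 without met-1 mutant mes-4(RNAi) replicate 2.

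The pharyngeal heavy chain genes had the lowest log2 fold changes of the 10. The gene myo-1 (WBGene00002348, chromosome I) was at 2204 and 2453 CPM in met-1 mutant mes-4(RNAi) libraries, against 2323 and 2422 CPM in wild type, so that the met-1 mutant mes-4(RNAi) values lay on either side of the wild type ones. Its log2 fold change was -0.03 (SE 0.13, edgeR adjusted p = 0.957), and it was 0.02 when libraries were scaled by size only. The gene myo-2 (WBGene00003514, chromosome X) was at 2214 and 2482 CPM in met-1 mutant mes-4(RNAi) libraries, against 2506 and 2529 CPM in wild type. Both wild type libraries were above both met-1 mutant mes-4(RNAi) libraries by a small margin, which closed on plain library size, with 2309 and 2463 against 2514 and 2432 CPM. The log2 fold change of myo-2 was -0.10 (SE 0.13, edgeR adjusted p = 0.799).

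**Figure D2:**
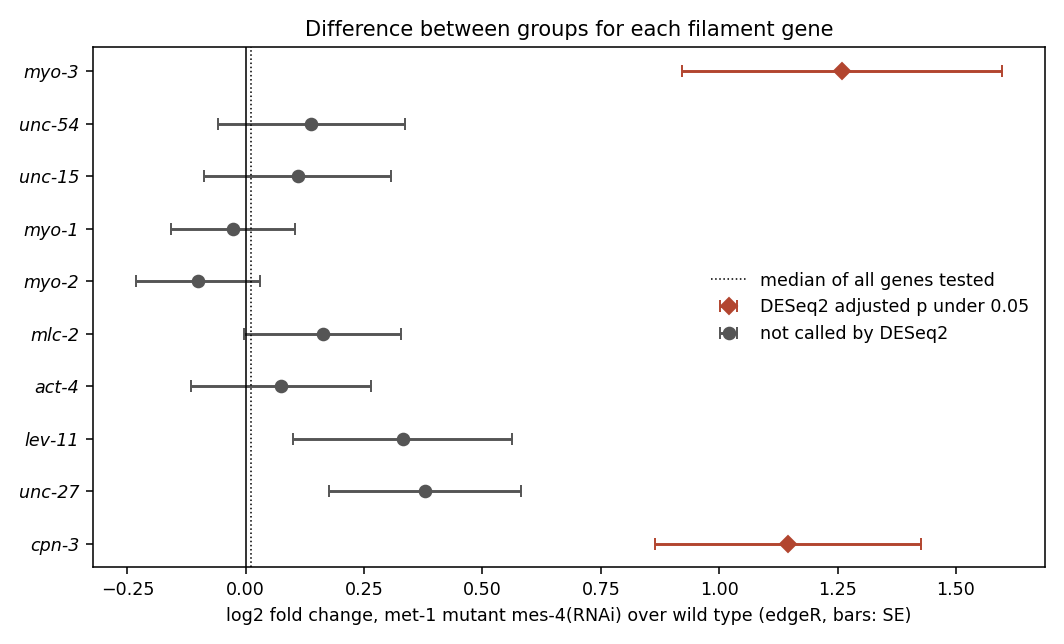
Log2 fold change of met-1 mutant mes-4(RNAi) over wild type from edgeR (horizontal axis) for each filament gene, with bars of 1 SE. The dotted line is the median of all genes tested, 0.01. Diamonds mark myo-3 at 1.26 and cpn-3 at 1.15, the genes with a DESeq2 adjusted p under 0.05, and the other 8 genes lie at 0.38 or below.

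Ratios within a library do not depend on how libraries are scaled. Per kb of the deposited gene length, myo-3 was at 0.117 and 0.164 of the unc-54 level in met-1 mutant mes-4(RNAi) libraries, against 0.0599 and 0.0704 in wild type. Both met-1 mutant mes-4(RNAi) ratios exceeded both wild type ratios, and the difference of the log2 means was 1.09. An exact permutation test, two-sided, gave p = 0.333, the smallest value that 2 against 2 libraries can give. The ratio of body wall heavy chain (myo-3 plus unc-54) to pharyngeal heavy chain (myo-1 plus myo-2) was 1.05 and 1.24 in met-1 mutant mes-4(RNAi) libraries, against 0.829 and 1.03 in wild type. These groups also did not overlap, but by a margin of 1.05 against 1.03, which is smaller than the spread within either group. The difference of the log2 means was 0.30, with the same exact p of 0.333. In whole larvae, a different number of muscle cells and a different amount of RNA per muscle cell cannot be told apart in the levels of the 10 genes or in the body wall to pharyngeal ratio.

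**Figure D3:**
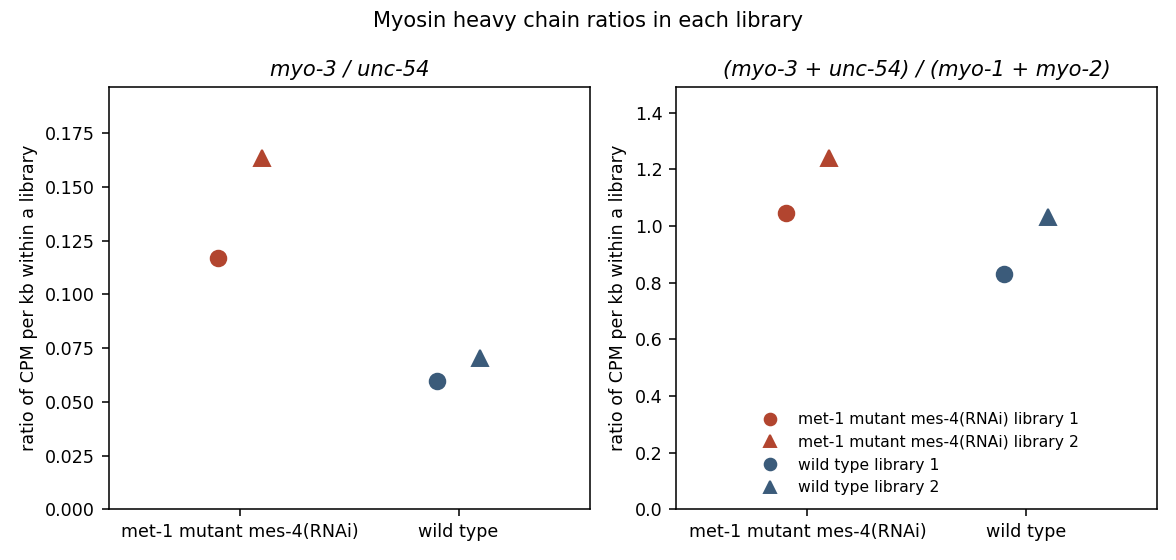
Ratio of CPM per kb within each library (vertical axes from 0), of myo-3 to unc-54 on the left and of body wall to pharyngeal heavy chain genes on the right. Circles are library 1 and triangles library 2. The myo-3 to unc-54 ratio is 0.117 and 0.164 in met-1 mutant mes-4(RNAi) larvae and 0.0599 and 0.0704 in wild type.

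On the thin filament, act-4 (WBGene00000066, chromosome X), an actin gene, was at 1359 and 1798 CPM in met-1 mutant mes-4(RNAi) libraries, against 1365 and 1633 CPM in wild type. The lowest of the 4 values was in the same group as the highest, and the log2 fold change was 0.07 (SE 0.19, edgeR adjusted p = 0.907). Tropomyosin, from lev-11 (WBGene00002978, chromosome I), was at 868.0 and 1310.8 CPM in met-1 mutant mes-4(RNAi) libraries, against 789.1 and 942.8 CPM in wild type. One library, met-1 mutant mes-4(RNAi) library 2, stood above the other 3, and the log2 fold change of 0.33 (SE 0.23, edgeR adjusted p = 0.592) was -0.01 without it. Troponin I of body wall muscle, from unc-27 (WBGene00006764, chromosome X), was at 236.3 and 328.7 CPM in met-1 mutant mes-4(RNAi) libraries, against 195.2 and 239.5 CPM in wild type. The met-1 mutant mes-4(RNAi) library 1 lay just below wild type library 2, and the log2 fold change was 0.38 (SE 0.20, edgeR adjusted p = 0.481, DESeq2 adjusted p = 0.564). The 2 groups of unc-27 did not overlap on plain library size (246.4 and 326.2 against 195.8 and 230.3 CPM).

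The calponin-family gene cpn-3 (WBGene00000779, chromosome I) was the least abundant of the 10, at 45.4 and 73.9 CPM in met-1 mutant mes-4(RNAi) libraries, against 23.1 and 30.8 CPM in wild type. Both met-1 mutant mes-4(RNAi) libraries were above both wild type libraries. The means were 59.6 ± 20.1 and 26.97 ± 5.44 CPM (SD, n = 2 each), a log2 fold change of 1.15 (SE 0.28), or 2.21-fold, with an edgeR adjusted p of 0.178 and a DESeq2 adjusted p of 0.00431. As for myo-3, the DESeq2 call ended without wild type replicate 1 (log2 fold change 0.94) or without met-1 mutant mes-4(RNAi) replicate 2 (0.74). It stayed without wild type replicate 2 (1.36) or without met-1 mutant mes-4(RNAi) replicate 1 (1.45). Of the 17 alternative fits, all gave a positive log2 fold change, from 0.77 to 1.62 for myo-3 and from 0.74 to 1.45 for cpn-3.

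Levels of different genes were compared per kb of the deposited gene length, as CPM per kb. In met-1 mutant mes-4(RNAi) larvae the order was mlc-2 (914.4 ± 165.8), act-4 (874.5 ± 171.7), unc-54 (693.1 ± 116.9), lev-11 (431.8 ± 124.1), myo-1 (358.0 ± 27.04), unc-15 (356.6 ± 79.2), myo-2 (331.3 ± 26.8), unc-27 (302.1 ± 69.9), myo-3 (99.2 ± 39.3) and cpn-3 (89.8 ± 30.3), each mean CPM per kb ± SD with n = 2. In wild type it was act-4 (830.7 ± 105.0), mlc-2 (817.0 ± 56.3), unc-54 (629.8 ± 104.6), myo-1 (364.8 ± 10.7), myo-2 (355.2 ± 2.33), lev-11 (343.2 ± 43.1), unc-15 (330.3 ± 39.0), unc-27 (232.4 ± 33.5), myo-3 (41.4 ± 11.5) and cpn-3 (40.6 ± 8.19), in the same unit. With these lengths, in both groups, the neighbours act-4 and mlc-2 did not differ beyond their spread, nor did each neighbouring pair among lev-11, myo-1, myo-2 and unc-15, nor myo-3 and cpn-3. In met-1 mutant mes-4(RNAi) larvae the neighbours myo-2 and unc-27 did not differ beyond it either. The ranges of mean ± SD of act-4 and unc-54 overlapped in both groups. Per kb, unc-54 was 6.99 times the myo-3 level in met-1 mutant mes-4(RNAi) larvae and 15.2 times in wild type. The deposited length of myo-3, 8448 bases, is 1.38 times the 6104 bases of its exons in the WBcel235 annotation, and that of mlc-2, 848 bases, 1.32 times. With the exon lengths of that annotation the same factors were 5.55 and 12.1. Those lengths also changed the order: myo-2 stood above myo-1 in met-1 mutant mes-4(RNAi) larvae (370.7 ± 30.0 against 360.6 ± 27.2 CPM per kb) and in wild type (397.4 ± 2.61 against 367.5 ± 10.8), in wild type by more than their spread. With them mlc-2 stayed above act-4 in met-1 mutant mes-4(RNAi) larvae (1210 ± 219.4 against 986.0 ± 193.6 CPM per kb). In wild type mlc-2 moved above act-4 (1081 ± 74.5 against 936.5 ± 118.3). The ranges of mean ± SD of these genes overlapped in both groups. As a divisor, the choice of length moves levels between genes and leaves every fold change of a single gene between groups as it is. The body wall to pharyngeal ratio sums genes and does depend on it: its log2 difference was 0.30 per kb and 0.32 on raw counts. All these levels used the deposited counts, so those with WBcel235 lengths combine counts and lengths of different gene models. What part reads over the extra deposited length of myo-3 and mlc-2 have in their counts and fold changes was not tested.

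The libraries of a group also differed from each other, in the same direction for the filament genes. Library 2 was above library 1 for 10 of the 10 genes in met-1 mutant mes-4(RNAi) larvae and for 10 of the 10 in wild type, while 37.7% of all genes tested had library 2 above library 1 in both groups. On plain library size the counts were 10 and 8, myo-1 and myo-2 being the exceptions, and the share of all genes was not computed. The gap was not particular to the 10 genes. Their median log2 ratio of library 2 to library 1 was 0.43 in met-1 mutant mes-4(RNAi) larvae and 0.26 in wild type. Hypodermis markers had 0.26 and 0.29, other troponin subunits 0.51 and 0.17, and all genes tested 0.016 and 0.00012. Intestine markers had -0.04 and -0.04, and non-muscle myosins -0.21 and -0.06. Among the 10, the largest gaps were those of myo-3, with library 2 higher by 0.83 (log2) in met-1 mutant mes-4(RNAi) larvae and by 0.57 in wild type, and of cpn-3, by 0.69 and 0.41. For unc-54 the gap was 0.35 and 0.34, more than its log2 difference of 0.14 between the groups. For lev-11 it was 0.59 and 0.26, and for the pharyngeal genes myo-1 and myo-2 at most 0.17 in met-1 mutant mes-4(RNAi) larvae and 0.06 in wild type. The genes with the larger differences between groups were thus among those with the larger gaps between libraries, and the part of the gap in the group difference was not tested. Within each replicate number, the log2 difference of met-1 mutant mes-4(RNAi) over wild type for myo-3 was 1.10 between libraries 1 and 1.36 between libraries 2. For cpn-3 these differences were 0.96 and 1.25, for unc-27 0.28 and 0.46, and for unc-54 0.14 and 0.14. With 1 library on each side, they carry no test. For myo-3 and cpn-3 the lack of overlap between groups fixes their sign in advance, so it adds no support.

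**Figure D4:**
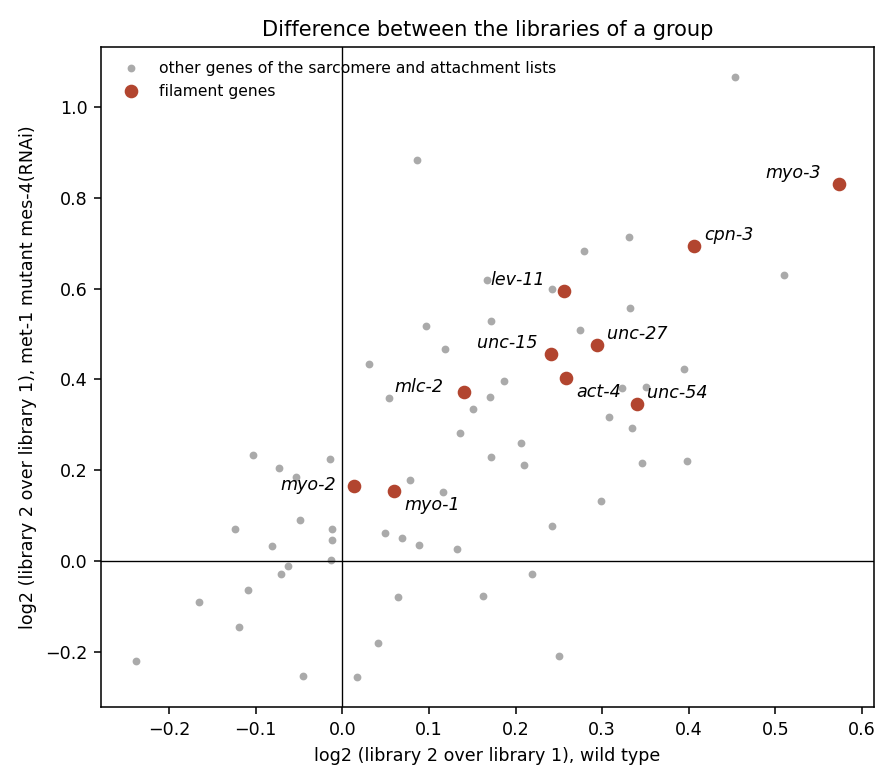
Log2 ratio of library 2 to library 1 in met-1 mutant mes-4(RNAi) larvae (vertical axis) and in wild type (horizontal axis), on TMM-scaled CPM. Large points are the 10 filament genes and small points the other genes of the sarcomere and attachment lists. All 10 filament genes lie above 0 on both axes, though myo-1 and myo-2 do not in wild type on plain library size, and myo-3 lies farthest out among them at 0.83 in met-1 mutant mes-4(RNAi) larvae and 0.57 in wild type.

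Close relatives of the filament genes were counted separately, and how the authors assigned reads that match more than 1 of them is not given in the labels or headers. The gene mlc-1, beside mlc-2 on chromosome X in the WBcel235 annotation and with a coding length of 510 bases like mlc-2, was at 330.3 and 424.1 CPM in met-1 mutant mes-4(RNAi) libraries, against 323.1 and 335.3 CPM in wild type (log2 fold change 0.20, SE 0.16). The values overlapped between groups, as did those of mlc-2. Among the actin genes of chromosome V, act-2 was at 125.2 and 125.4 CPM in met-1 mutant mes-4(RNAi) libraries, against 118.3 and 117.2 CPM in wild type, and act-3 at 124.3 and 188.5, against 104.8 and 124.1 CPM. The least abundant, act-1, was at 13.0 and 24.3 CPM, against 10.1 and 10.8 CPM, a log2 fold change of 0.84 (SE 0.32, edgeR adjusted p = 0.329). Levels of act-1 to act-4 and of mlc-1 and mlc-2 are therefore uncertain as single genes.

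Other sarcomere genes were taken as lists by role, and in the 8 lists of muscle and myosin genes DESeq2 called 1 of 88 tested genes, cpn-4, higher, against 2.45% of all genes, and edgeR called 0. At an unadjusted edgeR p under 0.05, 3 of the 88 were higher and 3 lower, against 7.74% and 6.82% of all genes. In the list of other actins, light chains and muscle heavy chains, 8 of 10 genes had a positive log2 fold change (median 0.11). The intestinal actin gene act-5 was at -0.34 (SE 0.12, edgeR adjusted p = 0.290). Of 9 other troponin subunit genes, 7 were positive (median 0.04), with tni-1, a troponin I gene, at 0.57 (SE 0.23, edgeR adjusted p = 0.353) and mup-2, a troponin T gene, at 0.46 (SE 0.21, edgeR adjusted p = 0.416). All 15 tested of the other calponin-like and actin-regulating genes were positive, with a median of 0.15, against 51.5% of all genes tested with a log2 fold change above 0. The lowest of the 15, at 0.01, stood at the median of all genes. This list too was chosen with earlier results of these data known, so its share is no evidence of an excess. Their called member cpn-4, of the calponin family, was at 29.6 and 29.1 CPM in met-1 mutant mes-4(RNAi) libraries, against 16.6 and 19.4 CPM in wild type. The groups of cpn-4 did not overlap and the libraries of each group lay close together (log2 fold change 0.70, SE 0.14, edgeR adjusted p = 0.124, DESeq2 adjusted p = 0.0194). The cofilin gene unc-60, whose product takes actin filaments apart, was at 0.25 (SE 0.12, edgeR adjusted p = 0.416).

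The 5 other lists had median log2 fold changes between -0.09 and 0.11. Of 10 genes for thick filament assembly and giant sarcomere proteins, 6 were positive (median 0.04), with the titin-like gene ttn-1 at 0.32 (SE 0.15) and unc-96, for an M-line protein, at -0.28 (SE 0.10). Of 15 tested genes for the dense bodies and M-lines that anchor the filaments, 13 were positive (median 0.11), including the kindlin gene unc-112 at 0.43 (SE 0.17) and the beta integrin gene pat-3 at 0.36 (SE 0.14). Excitation and calcium genes had a negative median of -0.09, with 5 of 14 positive, the acetylcholine receptor gene unc-29 at -0.26 (SE 0.17) and the junctophilin gene jph-1 at 0.20 (SE 0.14). Of 6 transcription factor genes 4 were positive (median 0.09), with pha-4, which specifies the pharynx, at 0.19 (SE 0.11). The body wall muscle factor gene hlh-1, a MyoD relative named for its role after its values were seen, was at 14.9 and 23.5 CPM in met-1 mutant mes-4(RNAi) libraries, against 13.3 and 21.5 CPM in wild type. It was high in library 2 of both groups and overlapped between them. Non-muscle myosins had a median of -0.08, with 4 of 9 positive, nmy-2 at -0.18 (SE 0.11) and hum-6 at -0.36 (SE 0.13). The edgeR adjusted p of the genes named here was 0.310 or above. When libraries were scaled by size only, the median of all genes moved to 0.06 and the positive genes became 9 of 9 for the troponin list and 8 of 10 for the thick filament assembly list, with the counts of the other 6 lists as given.

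**Figure D5:**
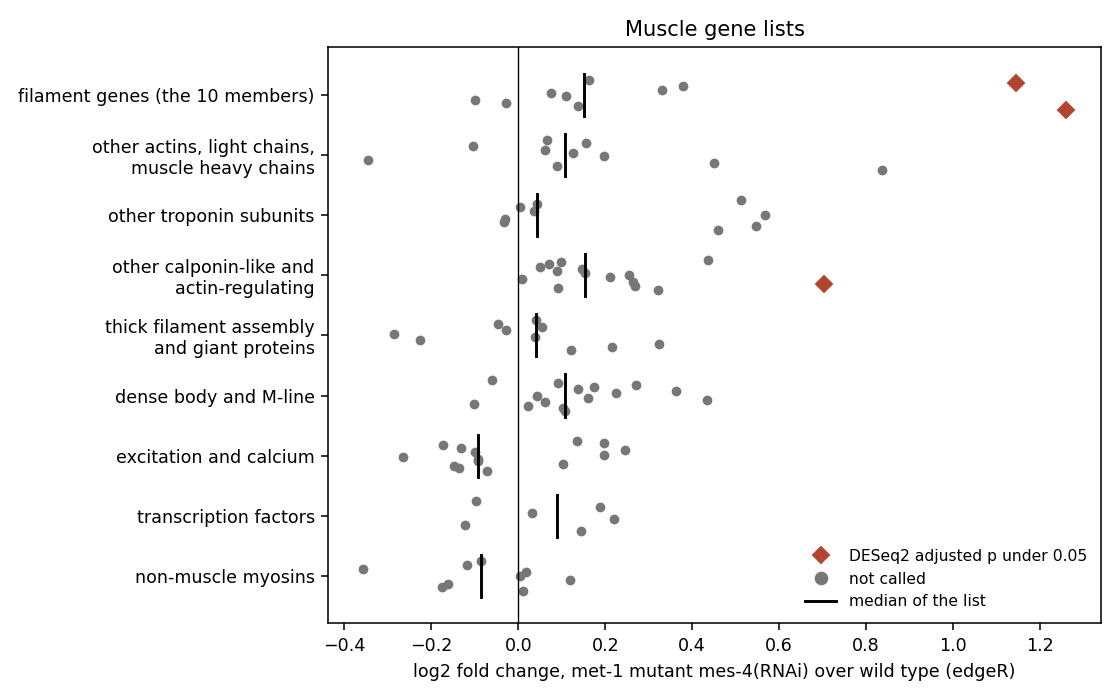
Log2 fold change of met-1 mutant mes-4(RNAi) over wild type from edgeR (horizontal axis) for each tested gene of the filament genes and of 8 muscle and myosin lists (rows). Vertical bars are list medians, 0.15 for the filament genes, and diamonds are the genes called by DESeq2: myo-3, cpn-3 and cpn-4.

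Marker lists of the tissues in a whole larva were summed in each library. The body wall list holds the filament genes myo-3, unc-54, unc-15 and unc-27, and the pharyngeal list holds myo-1 and myo-2. The sums of these lists therefore restate the filament genes in part, and unc-15 is not particular to body wall. Body wall muscle markers summed to 12884 and 15489 CPM in met-1 mutant mes-4(RNAi) libraries, against 11857 and 13213 CPM in wild type, overlapping between groups, and pharyngeal muscle markers to 6063 and 6854, against 6525 and 6670 CPM. Hypodermis markers summed to 203.9 and 239.3 CPM, against 170.4 and 239.1 CPM, and germline markers to 221.0 and 236.8 CPM, against 236.8 and 259.6 CPM. Neuron markers summed to 2615 and 2660 CPM, against 2773 and 2613 CPM, and intestine markers to 4596 and 4778 CPM, against 5279 and 4920 CPM. The intestine and germline sums were lower in met-1 mutant mes-4(RNAi) larvae without overlap, that of the germline with its nearest libraries equal after rounding, and the other 4 overlapped. The germline order rested on prg-1: without it the sums were 193.9 and 203.3 CPM in met-1 mutant mes-4(RNAi) larvae, against 187.1 and 179.9 CPM in wild type, higher without overlap. On plain library size the intestine sums overlapped (4794 and 4742 against 5296 and 4732 CPM), while the body wall muscle sums were higher without overlap (13436 and 15370 against 11895 and 12707 CPM). Within the intestine list the metallothionein gene mtl-2 was at 16.5 and 116.1 CPM in met-1 mutant mes-4(RNAi) libraries, against 10.1 and 12.0 CPM in wild type (log2 fold change 2.59, SE 0.89, edgeR adjusted p = 0.292), high in 1 library. DESeq2 called 1 marker higher, myo-3 itself, and 1 lower, the germline Piwi gene prg-1. The hypodermis genes dpy-4 and rol-6 had too few counts to be tested, and rol-6 was at 0 in wild type library 2. What part these sums have in the myo-3 and cpn-3 differences was not tested.

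Among 3456 other genes of at least 50 CPM on average, those whose log2 CPM over the 4 libraries lay closest to the myo-3 profile, by Euclidean distance after centring, were col-98 (distance 0.13), col-103 (0.29), lec-5 (0.30), col-42 (0.52) and col-160 (0.52). They are cuticle collagen genes except lec-5, which encodes a galectin. The closest, col-98, was at 145.0 and 234.4 CPM in met-1 mutant mes-4(RNAi) libraries, against 66.3 and 103.4 CPM in wild type. Like myo-3 it was higher in library 2 of each group and in both met-1 mutant mes-4(RNAi) libraries. Among the filament genes cpn-3, left out of that search at under 50 CPM on average, was at a distance of 0.18 from myo-3, with 1 of the 3456 genes nearer. The other 8 lay farther away: 48 of the 3456 genes were closer to myo-3 than unc-27 was, 55 were closer than lev-11, 190 closer than unc-54, and 1670 closer than myo-2. With 4 libraries, likeness of profile describes these libraries and no more.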

How the data were processed

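The authors deposited raw counts per gene and normalized log2 values for 20392 WormBase genes, with a gene length each. Per the submitters' processing notes the build was ce10; aligner, counter, annotation and strand setting are stated neither in the labels nor in the headers. The deposited log2 values equalled log2(count × factor + 8), with factors from 0.887 to 1.07 that bring each library to 1 total, worked out from the values. Per the labels, 5 µg of total RNA entered a ribosomal-depletion kit. Symbols came from the reference name table (19182 identifiers matched), and chromosomes, neighbours and exon lengths from annotations of WBcel235. Because that is another build, no coordinates are given.

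Counts were tested in R 4.3.3 with edgeR 4.0.16 (filterByExpr, leaving 15008 genes; TMM; quasi-likelihood F-test without a block; Benjamini-Hochberg adjustment over all genes, threshold 0.05). The SE is the log2 fold change over the square root of F. DESeq2 1.42.0, limma 3.58.1, other scalings and filters, a replicate block and leaving out each library were alternatives. Ratios used an exact permutation test. The scripts were tested on simulated data. Log2 ratios between single libraries used CPM plus 0.5. Figures used matplotlib 3.10.9.

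The 10 genes and the 14 other lists were chosen with earlier results of these data known. Genes named beyond the 10 are met-1, mes-4, close paralogs, up to 2 genes per list with the smallest edgeR p, those called by DESeq2, and the 5 profiles nearest to myo-3. Outside this rule, hlh-1 and the untested markers dpy-4 and rol-6 were named after their values were seen.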

Additional observations from a re-analysis of the deposited data

How the results depend on the processing

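The limits are those of 2 libraries a group: depth was ample, and the calls follow the tool and single libraries. Over all genes edgeR called 0 as fitted, 128 without a filter on low counts, 2 with the filter at 5 CPM and 3047 with the replicate block, while DESeq2 called 655, and 1387 with the replicate block. Leaving out 1 library, edgeR called 0 to 35 over all genes, and DESeq2 called 198 and 152 without wild type replicates 1 and 2, and 209 and 176 without replicates 1 and 2 of the met-1 mutant mes-4(RNAi) group. Of the 10 filament genes edgeR called 0 as fitted, DESeq2 called 2 (myo-3 and cpn-3), and the replicate block called 3 with either tool, adding unc-27 (edgeR adjusted p = 0.0147). Fits that left out 1 library called 0 to 2 of them. Their median log2 fold change then lay from -0.05 to 0.33. The log2 difference of the myo-3 to unc-54 ratio lay from 0.85 to 1.33, and that of the body wall to pharyngeal ratio from 0.14 to 0.46.

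Replicate numbers were not taken as pairs, since the labels do not say that a number marks a shared batch. The gaps between libraries 2 and 1 correlated across genes at 0.646 between the groups. The edgeR adjusted p under the block was 0.000228 for myo-3 and 0.00032 for cpn-3, and the paired difference of the ratios was 1.09 and 0.30 as before (exact p = 0.5).

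The sign of small differences turned. For myo-1 the log2 fold change was 0.022 with library size only, 0.013 with the 5 CPM filter and 0.021 on the authors' log2 values. In the edgeR fits that left out 1 library, the log2 fold change of myo-1 lay from -0.12 to 0.047, of unc-54 from -0.054 to 0.32, of unc-15 from -0.14 to 0.32, of mlc-2 from -0.044 to 0.34, of act-4 from -0.15 to 0.26 and of lev-11 from -0.0054 to 0.60. With DESeq2 the turned values were 0.043 for myo-1 without met-1 mutant mes-4(RNAi) replicate 1, and, without wild type replicate 1, -0.039 for unc-54, -0.022 for unc-15 and -0.066 for act-4. Without met-1 mutant mes-4(RNAi) replicate 2, DESeq2 gave -0.056 for unc-54, -0.15 for unc-15, -0.046 for mlc-2, -0.15 for act-4 and -0.0072 for lev-11. The cause was not tested. DESeq2 without each library, DESeq2 with the block, the WBcel235 lengths and the marker sums on plain library size or without prg-1 were added after the data were seen.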
